A study of Homo sapiens with 6 samples.

Results

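Ribosome biogenesis is the production of ribosomes in the nucleolus, and 38 genes of this process were examined in the MYCN-amplified human neuroblastoma line IMR-32. The cells were treated for 24 h with the solvent DMSO or with 25 nM PTC-028, which is applied to block BMI1, a Polycomb group protein, and mRNA purified by its poly(A) tail was sequenced in 3 libraries per group. Both groups carried the same genotype, labelled WT, and differed only in the treatment, so the comparison describes 1 cell line, 1 dose and 1 time. The 38 genes were chosen by name, for their function, out of 22830 symbols in the table, and every one had a value. In BOP1 and PES1 the symbol had been damaged in a spreadsheet, and both were found by their Ensembl identifiers.

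RNA polymerase I copies the ribosomal DNA repeats into a long precursor RNA. Small nucleolar ribonucleoproteins (snoRNPs) of the box C/D and H/ACA kinds modify that precursor by methylation and pseudouridylation, and separate sets of assembly factors then cut and fold it into the small and the large ribosomal subunit. MYC proteins are known to drive many of these genes, in neuroblastoma through MYCN. When assembly is disturbed, a free particle of 5S RNA with the ribosomal proteins RPL5 and RPL11 is known to bind MDM2 and so to stabilise p53. The comparison addressed whether this MYC-driven function moved alongside the p53 response named in the title of the study.

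MYC and MYCN bind the E-box, a sequence of letters CACGTG that reads the same on both strands. RefSeq promoter windows of build GRCh38.p14, from 250 bases before to 50 bases after the annotated start, were found for 33 of the 38 genes. An E-box was present in 17 of these 33 genes (51.5%), against 1278 of 9929 genes tested for expression that had a window (12.9%). Some genes had several windows, and counted by window the shares were 41.5% of 41 and 9.41% of 14684. The sequences below show the E-box in capitals with 12 bases on each side, 5′ to 3′ on the strand of the gene, for genes of 5 of the 6 roles described here, so that the shared core and the differing flanks can be seen.
FBL: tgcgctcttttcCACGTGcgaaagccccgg
NOP10: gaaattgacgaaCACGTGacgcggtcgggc
GNL3: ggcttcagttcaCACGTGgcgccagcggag
DDX21: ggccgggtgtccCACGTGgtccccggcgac
RRP9: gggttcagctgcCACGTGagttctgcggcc
UTP20: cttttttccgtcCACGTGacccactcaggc
NOL6: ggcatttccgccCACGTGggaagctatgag
WDR43: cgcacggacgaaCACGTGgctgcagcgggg
PES1: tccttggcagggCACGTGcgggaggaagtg
These lie at chr19:39846356-39846385 (FBL, minus strand), chr15:34343130-34343159 (NOP10, minus), chr3:52686026-52686055 (GNL3, plus), chr10:68956604-68956633 (DDX21, plus), chr3:51941892-51941921 (RRP9, minus), chr12:101280083-101280112 (UTP20, plus), chr9:33473894-33473923 (NOL6, minus), chr2:28894658-28894687 (WDR43, plus) and chr22:30591880-30591909 (PES1, minus). Of the 18 E-box copies in the windows of the 38 genes, 16 began no more than 50 bases before the start or after it, against 1042 of 2821 copies in all windows (36.9%). The motif was most frequent in genes of small subunit assembly, at 8 of 10 with a window, and was in 0 of 4 genes of RNA polymerase I, whose windows lack these letters only within the stretch searched. Among genes of the same process outside the 38, it was in 11 of 37 small subunit factors and 11 of 42 large subunit factors. It was in 0 of 11 other RNA polymerase I genes, 0 of 7 other snoRNP genes and 1 of 12 genes of the RNA exosome. Of ribosomal protein genes, 4 of 63 (6.35%) held it. A match of letters is a description and shows no binding.

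**Figure D1:**
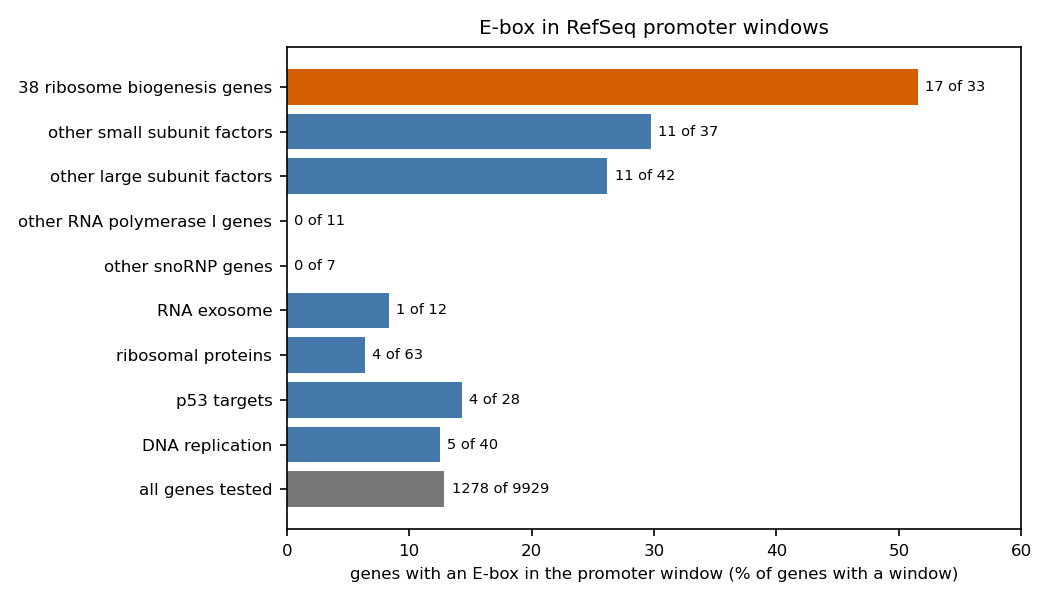
Percentage of genes whose RefSeq promoter window holds the E-box, with the number of genes and of genes with a window beside each bar. The bar of the 38 ribosome biogenesis genes reaches 51.5%, that of all genes tested 12.9% and that of ribosomal proteins 6.35%.

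The deposited values are TPM, which are scaled for gene length and relative to all RNA of a library, so levels can be compared between genes. In such bulk RNA, fewer cells with a transcript and less of it per cell cannot be told apart. Depth cannot be read from them. The libraries held between 13315 and 13727 symbols with a TPM of at least 1, and Pearson correlations between libraries were from 0.983 to 0.989. Of the adrenergic neuroblastoma markers, HAND2, GATA3, TH and DBH had mean values of 498, 147, 10.6 and 4.10 TPM in DMSO. The sum of 7 such markers was between 2146 and 2266 TPM in DMSO and between 2332 and 2412 TPM with PTC-028, without overlap, and GATA3 rose to 187 TPM (limma adjusted p = 0.0184). GATA3 missed the threshold when DMSO replicate 1 or one of the PTC-028 libraries was left out (adjusted p from 0.0689 to 0.08). It also missed it with eBayes without a trend (0.0909) and with the replicate number as a block (0.0976). In these fits its log2 fold change was 0.32 to 0.37, against 0.35. Of 3 endothelial markers and 3 measured epithelial markers none reached 2 TPM in any library, and the summed immune markers, which were mostly PTPRC, lay between 3.86 and 6.98 TPM. Mesenchymal markers summed to between 361 and 391 TPM in DMSO and between 412 and 434 TPM with PTC-028, mostly VIM, with COL1A2, DCN and LUM under 1 TPM. MYCN, the amplified driver, was at 1059, 1101 and 1109 TPM in the DMSO libraries and 1158, 1186 and 1118 TPM in the PTC-028 libraries, a log2 fold change of 0.08 ± 0.04 (SE; limma, adjusted p = 0.316). The groups did not overlap, but the difference did not pass the test. MYC itself stayed under 1 TPM everywhere and was not tested. The part of the higher adrenergic and mesenchymal sums in the results that follow was not tested.

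All 38 genes were expressed, and all reached the filter of at least 1 TPM in at least 3 libraries. In DMSO they ranged from 18.2 TPM for UTP15 to 2957 TPM for NPM1, with a median of 74.7 TPM, against a median of 17.7 TPM over the 13556 genes tested. They summed to 8099, 8326 and 8060 TPM in the DMSO libraries and 7906, 7935 and 8225 TPM in the PTC-028 libraries. The groups overlapped, and the whole set took between 0.791% and 0.833% of all TPM in every library. NPM1 and NCL alone supplied 48.1% of the sum in DMSO. Libraries of 1 group differed little, with a median within-group SD of 0.0842 on the log2 scale over the 38 genes, against 0.0938 over 6403 other genes at or above the lowest mean of the 38. No library was uniformly high or low. DMSO replicate 3 was the highest of all 6 libraries for 11 of the 38 genes and the lowest for 10. DMSO replicate 1 was the lowest for 11 and the highest for 3, and DMSO replicate 2 the lowest for 1 and the highest for 7. The median deviation of the 38 genes from the mean of all 6 libraries was -0.04 in DMSO replicate 1 and 0.03 in DMSO replicate 2, on the log2 scale. In 11 of the 38 genes the DMSO mean was between 20 and 50 TPM and in another 11 between 50 and 100 TPM.

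**Figure D2:**
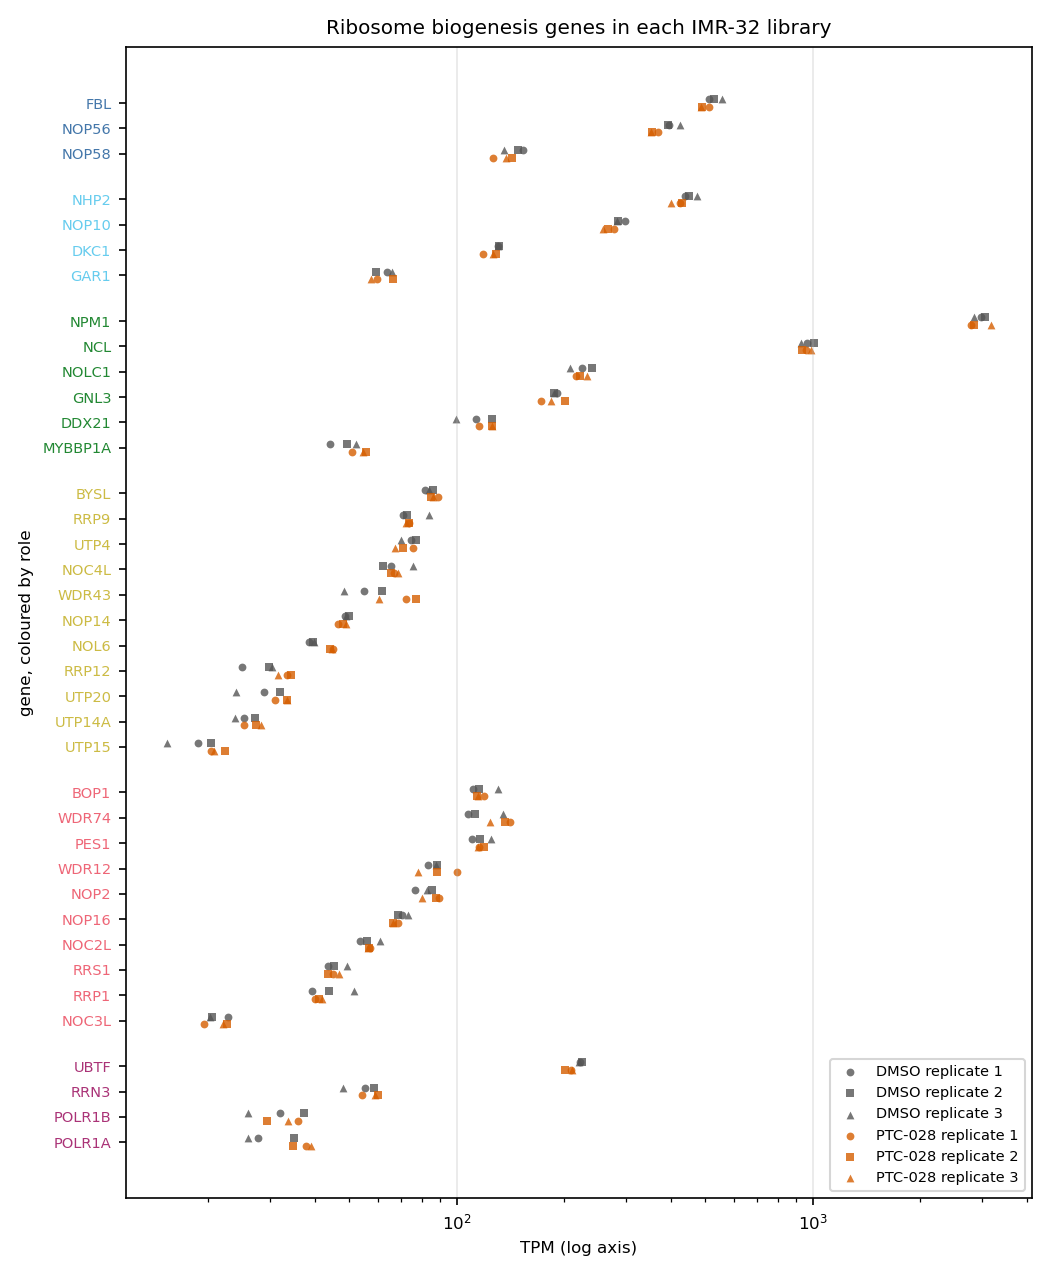
TPM of each of the 38 genes in the 3 DMSO libraries (grey) and the 3 PTC-028 libraries (orange) on a log axis, with one row per gene, marker shape for the replicate number and gene names coloured by role. NPM1 stands highest at about 2957 TPM and UTP15 lowest at 18.2 TPM, and the grey and orange points lie close together in every row.

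None of the 38 genes passed the test between PTC-028 and DMSO, in which 284 of 13556 genes (2.1%) passed at a limma adjusted p under 0.05, 136 higher (1%) and 148 lower (1.09%). The log2 fold changes of the 38 genes lay between -0.17 and 0.34 with a median of -0.01, and the median of all genes tested was 0.03. Of the 38, 17 were above 0 and 21 below. At an unadjusted p under 0.05 there were 8 genes (21.1% of 38), 4 higher and 4 lower, against 17.7% of all genes tested (10.2% higher and 7.55% lower). The groups did not overlap for 9 of the 38 genes (23.7%), against 24.3% of all genes tested. Both shares were near their background. A missed threshold does not show that the levels were equal, and the 95% intervals bound the difference instead. For 36 of the 38 genes (94.7%) the interval lay wholly within a 1.5-fold change in either direction, and for 29 (76.3%) within 0.32 on the log2 scale, a narrower bound, against 78.6% and 36.2% of all genes tested. Among 6634 other genes with a DMSO level at least as high as that of the lowest of the 38, the shares were 94.6% and 61.1%. The genes whose interval crossed 1.5-fold were WDR43 and POLR1A, both on the upper side. With any 1 library left out, 0 of the 38 genes passed, other than without DMSO replicate 2, where POLR1A did (adjusted p = 0.0464) beside 1.8% of all genes tested. With weights per library, 8 of the 38 passed (MYBBP1A, NOL6, NOP10, NOP56, POLR1A, RRP12, WDR43 and WDR74), beside 17.5% of all genes tested.

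**Figure D3:**
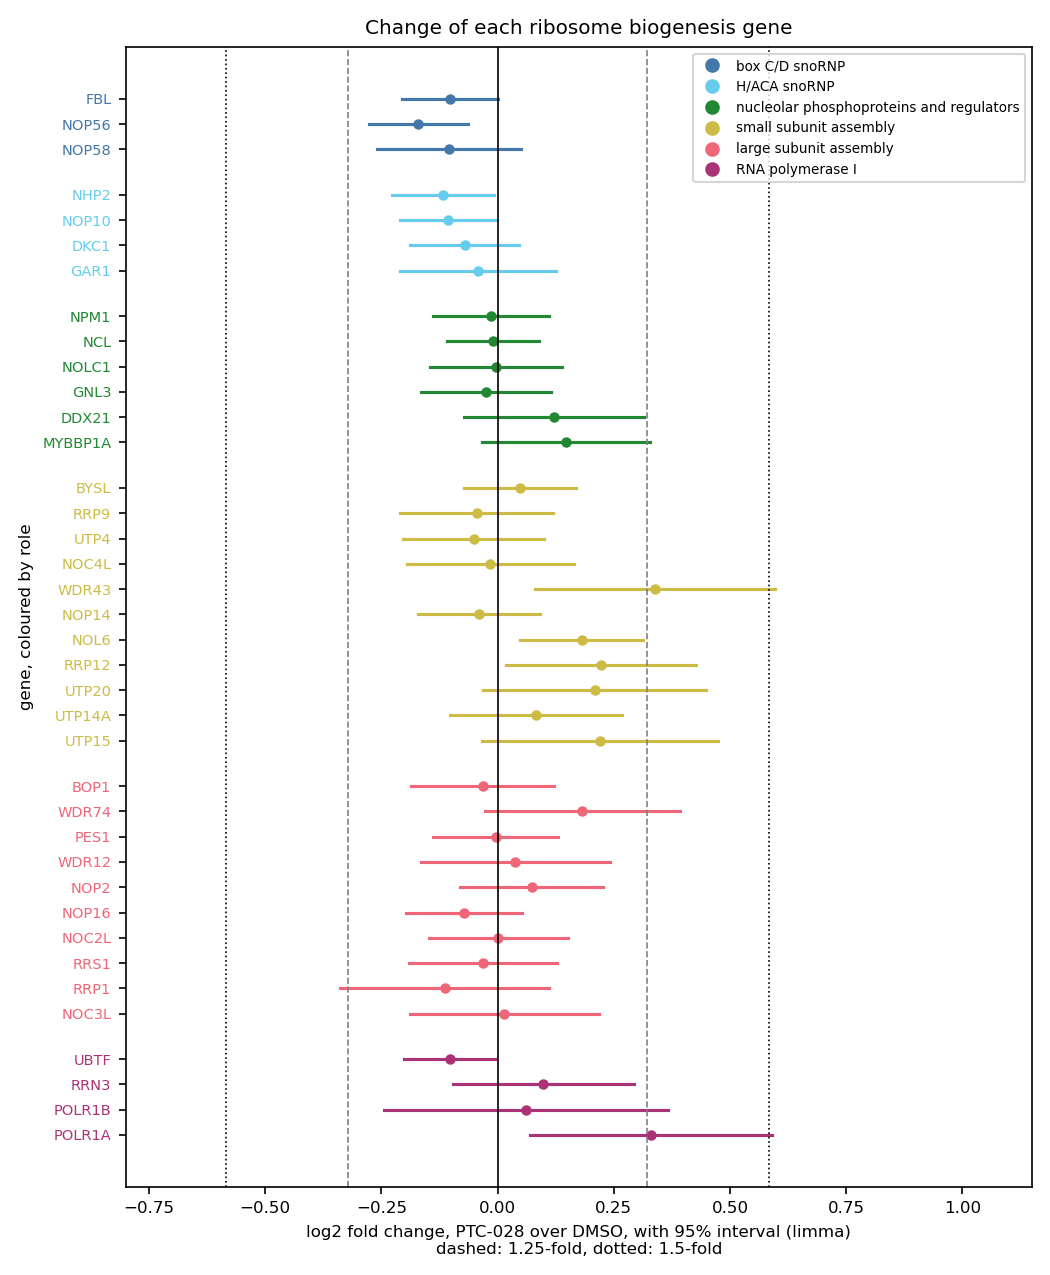
Log2 fold change of each gene, PTC-028 over DMSO, with its 95% interval from limma (n = 3 libraries per group), coloured by role, with dashed lines at 0.32 and dotted lines at 0.58 on the log2 scale, the latter a 1.5-fold change. Points run from -0.17 to 0.34, the box C/D and H/ACA genes all lie left of 0, and the intervals of WDR43 and POLR1A cross the right dotted line.

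Core proteins of the box C/D snoRNP among the 38 genes are NOP56, NOP58 and the methyltransferase fibrillarin, encoded by FBL. The snoRNP subunit SNU13 was not among the 38 and is counted below with the other snoRNP genes. NOP56 (chromosome 20, 2652145 to 2658393, GRCh38) had 394, 394 and 424 TPM in the DMSO libraries and 369, 355 and 352 TPM in the PTC-028 libraries, so every PTC-028 library was below every DMSO library. Its log2 fold change of -0.17 ± 0.05 (SE; 95% interval -0.28 to -0.06) had the smallest p of the 38 genes and missed the threshold (limma adjusted p = 0.12). FBL (chromosome 19, 39834458 to 39846414) was at 513, 528 and 557 TPM in DMSO and 511, 490 and 487 TPM with PTC-028. These groups also did not overlap, though DMSO replicate 1 and PTC-028 replicate 1 nearly touched, and the change was -0.10 ± 0.05 (SE; adjusted p in limma = 0.285). NOP58, the partner of NOP56 in the particle, had means of 146 ± 9.09 and 136 ± 8.56 TPM (SD over 3 libraries) with overlapping groups, and its change of -0.10 was -0.05 without PTC-028 replicate 1 and -0.07 without DMSO replicate 1.

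The H/ACA snoRNP consists of the pseudouridine synthase dyskerin, encoded by DKC1, with NHP2, NOP10 and GAR1, and also forms part of telomerase. NHP2 (chromosome 5, 178149460 to 178153967) had 437, 451 and 474 TPM in DMSO and 423, 431 and 401 TPM with PTC-028, and the groups did not overlap. Its log2 fold change was -0.12 ± 0.05 (SE; adjusted p in limma = 0.256). Its exons overlap those of RMND5B on the opposite strand, and no source used here says whether strand was counted. Exons of 10 of the 38 genes, among them GNL3, MYBBP1A, NOC2L, NOP16, PES1, UTP4 and WDR12, overlap those of another protein-coding gene in this way or on the same strand, as in NOP2 and RRS1, so reads in the overlap cannot be assigned with certainty. NOP10 (chromosome 15, 34341713 to 34343177) was at 296, 283 and 282 TPM in DMSO and 276, 266 and 259 TPM with PTC-028, again without overlap, with a change of -0.11 ± 0.05 (SE; adjusted p in limma = 0.275). DKC1 was at 131 ± 0.739 and 125 ± 5.51 TPM and GAR1 at 63.0 ± 3.47 and 61.2 ± 4.44 TPM (SD over 3 libraries). DKC1 did not overlap between the groups and GAR1 did.

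For all 7 core snoRNP genes among the 38 the log2 fold change was thus below 0, between -0.17 and -0.04, and none passed. Over all genes tested, 5751 of 13556 were below 0, and 3308 of 6634 other genes at or above the lowest DMSO level of the 38. Summed, they stood at 1989, 1996 and 2070 TPM in the DMSO libraries and 1884, 1880 and 1821 TPM in the PTC-028 libraries, a mean of 2018 ± 44.9 against 1862 ± 35.4 TPM (SD over 3 libraries). The 2 groups of sums did not overlap, a difference of -7.75% of the DMSO mean. Quantile normalisation left all 7 below 0 but took their median from -0.10 to -0.06, with FBL at -0.04, NOP10 at -0.06 and NHP2 at -0.07. With 1 library left out, GAR1 reached 0.00 without PTC-028 replicate 3, and the others stayed below 0 in every such fit. Since the genes were grouped by function and not tested as a set, this is a count and not a test. Among 11 tested genes for other snoRNP subunits and assembly factors, 7 were below 0 and none passed. The smallest p there was that of SHQ1, a chaperone of dyskerin, at 25.4 ± 3.69 TPM in DMSO and 19.9 ± 0.843 TPM with PTC-028 (SD over 3 libraries; limma adjusted p = 0.169), and its change of -0.33 was -0.22 without DMSO replicate 3.

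Nucleolar phosphoproteins and regulators include the most abundant genes, and none of the 6 had an unadjusted p under 0.05. NPM1, a histone and ribosome chaperone that also holds ARF in the nucleolus (chromosome 5, 171387116 to 171411137), had 2981, 3056 and 2833 TPM in DMSO and 2793, 2834 and 3168 TPM with PTC-028. The PTC-028 libraries held both the lowest and the highest value, and the log2 fold change was -0.01 ± 0.05 (SE; 95% interval -0.14 to 0.11; limma adjusted p = 0.922). The 24 NPM1 pseudogenes of the table summed to at most 4.35 TPM in any library. NCL, which encodes nucleolin, was at 967, 1007 and 930 TPM in DMSO and 961, 932 and 989 TPM with PTC-028, with an interval from -0.11 to 0.09. NOLC1, a snoRNP chaperone, and GNL3, which encodes nucleostemin, a GTPase that binds MDM2, had log2 fold changes of -0.004 and -0.02. MYBBP1A, a nucleolar protein that also takes part in the activation of p53 (chromosome 17, 4538897 to 4555631), was at 44.1, 49.1 and 52.3 TPM in DMSO and 50.7, 55.7 and 54.7 TPM with PTC-028. Its groups overlapped through DMSO replicate 3, and the change of 0.15 ± 0.08 missed the threshold (SE; adjusted p in limma = 0.37). DDX21, an RNA helicase that couples polymerase I transcription to processing, had 114, 125 and 99.8 TPM in DMSO and 116, 126 and 126 TPM with PTC-028, with overlapping groups. Its change of 0.12 was 0.04 without DMSO replicate 3, and that of MYBBP1A was 0.08 without DMSO replicate 1.

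Small subunit assembly takes place in the processome, the large particle that forms on the precursor RNA, and 7 of its 11 genes were above 0, against 7805 of 13556 genes tested. The median log2 fold change of the role was 0.08, or 0.03 after correction for length and GC content, and that of the RNA polymerase I genes was also 0.08. NOL6, a processome subunit (chromosome 9, 33461441 to 33473930), had 38.5, 39.4 and 39.7 TPM in DMSO and 44.9, 44.2 and 44.6 TPM with PTC-028. The libraries of each group lay within 2 TPM of each other and the groups did not overlap, with a change of 0.18 ± 0.06 (SE; 95% interval 0.05 to 0.31; limma adjusted p = 0.166). WDR43, which helps to load the processome (chromosome 2, 28894643 to 28948222), was at 55.04, 61.8 and 48.2 TPM in DMSO and 72.1, 76.7 and 60.6 TPM with PTC-028. PTC-028 replicate 3 lay between the DMSO libraries, and the change of 0.34 ± 0.11, the highest of the 38 genes, missed the threshold (SE; 95% interval 0.08 to 0.60; limma adjusted p = 0.178). BYSL, a pre-40S export and assembly factor and the most abundant of this role, was at 81.4, 85.7 and 83.5 TPM in DMSO and 89.0, 84.5 and 85.7 TPM with PTC-028, with overlapping groups.

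RRP12, another factor of late pre-40S maturation and export, had 25.0, 29.7 and 30.3 TPM in DMSO and 33.3, 34.4 and 31.6 TPM with PTC-028, with no overlap and a change of 0.22 ± 0.09 (SE; adjusted p in limma = 0.253), or 0.14 without DMSO replicate 1. The processome genes UTP15 and UTP20 had changes of 0.22 and 0.21 (limma adjusted p = 0.345 and 0.343), and in both DMSO replicate 3 was the lowest library, without which they were at 0.11 and 0.10. UTP14A was at 0.08. The remaining genes of the role, NOP14, NOC4L, UTP4 and the U3 snoRNP protein RRP9, lay between -0.05 and -0.02. UTP4 was the 1 gene of the 38 with a second row, a copy on an alternative sequence, which held between 0.207 and 4.37 TPM beside 65.2 to 75.9 TPM in the row on chromosome 16. The sum was 74.3, 76.9 and 69.6 TPM in DMSO and 75.3, 70.5 and 67.2 TPM with PTC-028. Of 43 other small subunit factors none passed, and 25 were above 0, against 7805 of all 13556 genes tested. An unadjusted p under 0.05 was found for 9 of them (20.9%), all higher, against 17.7% of all genes tested (10.2% higher). RCL1, a factor for precursor cleavage, had the smallest p, with 28.6 ± 1.16 TPM in DMSO and 34.6 ± 0.811 TPM with PTC-028 (SD over 3 libraries; limma adjusted p = 0.0972), and reached an adjusted p of 0.0426 after correction for length and GC content.

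The summed genes of small subunit assembly were at 532, 558 and 543 TPM in DMSO and 578, 581 and 561 TPM with PTC-028, so here the PTC-028 libraries were the higher ones without overlap, whereas the snoRNP sums were lower. The nearest libraries, DMSO replicate 2 and PTC-028 replicate 3, were at 558 and 561 TPM. Under median ratio scaling the median log2 fold change went from 0.08 to 0.05 for small subunit assembly and from -0.10 to -0.14 for the snoRNP genes. The sums were not rescaled in this way. The sums of the other roles overlapped between the groups, at 4523, 4665 and 4311 TPM in DMSO against 4310, 4372 and 4754 TPM for phosphoproteins and regulators. For large subunit assembly they were 718, 751 and 815 against 796, 777 and 745 TPM, and for RNA polymerase I 338, 356 and 321 against 338, 326 and 343 TPM. Whether the roles differed from each other was not tested. The direction of a gene went with its level and its transcript length. Across the 38 genes the Spearman correlation of the log2 fold change was -0.56 with the mean log2 level and 0.46 with the median length of the protein-coding transcripts, against -0.19 and 0.17 across 12522 tested genes with a length. These are correlations across genes of the same 6 libraries, which are not independent. The median length counted every annotated protein-coding transcript, whether or not it was expressed. It was 664 bases for WDR43, 748 for NCL and 8100 for WDR12. The lengths of single genes, and the correction for length given below, are therefore uncertain. Length also tracked single libraries. Across the 38 genes, the deviation of a library from the mean of all 6 correlated with length at -0.35, 0.18 and -0.36 in DMSO replicates 1, 2 and 3 and at 0.09, 0.27 and 0.55 in PTC-028 replicates 1, 2 and 3. Across all genes these were -0.08, 0.14 and -0.28 in DMSO and 0.05, 0.10 and 0.17 with PTC-028, so DMSO replicate 2 lay among the PTC-028 libraries. The part of length in these differences was not tested gene by gene. After correction of each library for length and GC content, chosen after seeing the data, POLR1A went from 0.33 to 0.18, UTP20 from 0.21 to 0.08, NOL6 from 0.18 to 0.10, MYBBP1A from 0.15 to 0.07, DDX21 from 0.12 to 0.05, RRP1 from -0.11 to -0.18 and UBTF from -0.10 to -0.17, while NOP56 stood at -0.19 and WDR43 at 0.33, and 0 of the 38 genes passed. The median went from 0.08 to 0.03 for small subunit assembly. For the 7 snoRNP genes it went from -0.10 to -0.13, and all 7 stayed below 0.

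**Figure D4:**
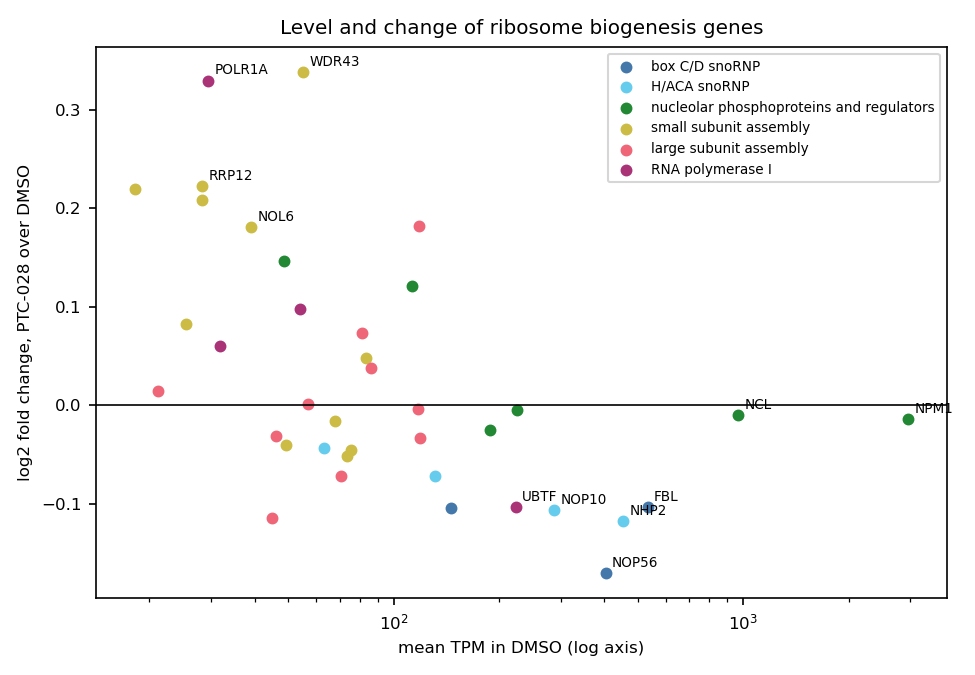
Log2 fold change, PTC-028 over DMSO, against the mean TPM in DMSO on a log axis, 1 point per gene, coloured by role. The highest changes, WDR43 at 0.34 and POLR1A at 0.33, are at 55.01 and 29.5 TPM, whereas NOP56, FBL, NHP2 and NOP10, between 287 and 533 TPM, lie between -0.17 and -0.10.

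Large subunit assembly includes PES1, BOP1 and WDR12, which form the PeBoW complex needed to process the RNA of the large subunit. In this role 5 of 10 genes were above 0, the median was -0.001, and 0 of 10 genes had an unadjusted p under 0.05. BOP1 (chromosome 8, 144262102 to 144291370) had 112, 115 and 130 TPM in DMSO and 120, 114 and 115 TPM with PTC-028, and PES1 (chromosome 22, 30576625 to 30607083) had means of 117 ± 7.38 and 117 ± 2.36 TPM (SD over 3 libraries). These partner genes were at nearly equal levels, in DMSO 119 ± 10.0 TPM for BOP1 against 117 ± 7.38 TPM for PES1 (SD, n = 3), a difference smaller than their spread, and WDR12 was at 86.1 ± 2.70 TPM. None of the 3 had an interval beyond -0.19 or 0.24. WDR74, a factor of pre-60S release, was at 108, 112 and 135 TPM in DMSO and 141, 137 and 124 TPM with PTC-028. DMSO replicate 3 lay among the PTC-028 libraries, and the change of 0.18 ± 0.09 missed the threshold (SE; adjusted p in limma = 0.344), at 0.28 without DMSO replicate 3 and 0.12 without DMSO replicate 1.

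NOP16 was at 70.4, 68.5 and 73.0 TPM in DMSO and 68.7, 66.4 and 66.4 TPM with PTC-028, with groups that overlapped by less than 1 TPM and a change of -0.07 ± 0.05 (SE; adjusted p in limma = 0.53). NOP2, an RNA methyltransferase, and the assembly factors NOC2L, NOC3L and RRS1, the last of which brings the 5S particle into the pre-60S subunit, had log2 fold changes of 0.07, 0.002, 0.01 and -0.03. RRP1 was at -0.11, with DMSO replicate 3 its highest library at 51.5 TPM, and was at -0.01 without that library and -0.20 without DMSO replicate 1. None of 48 other large subunit factors passed, and 28 were above 0, against 7805 of all 13556 genes tested. For 6 (12.5%) the unadjusted p was under 0.05, 2 higher and 4 lower, against 17.7% of all genes tested. Among them BRIX1, a pre-60S factor, had the smallest p, with 59.0, 60.8 and 59.5 TPM in DMSO and 46.3, 52.7 and 50.4 TPM with PTC-028 (limma adjusted p = 0.0991), and after correction for length and GC content its adjusted p was 0.0324.

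For RNA polymerase I, POLR1A encodes the largest subunit and POLR1B the second largest, RRN3 is the initiation factor that brings the polymerase to the promoter, and UBTF binds along the ribosomal DNA. POLR1A (chromosome 2, 86020216 to 86106155) had 27.6, 35.0 and 25.9 TPM in DMSO and 37.7, 34.7 and 38.9 TPM with PTC-028. DMSO replicate 2 lay just above PTC-028 replicate 2, and the change was 0.33 ± 0.11 (SE; 95% interval 0.07 to 0.59; limma adjusted p = 0.19), or 0.45 without DMSO replicate 2. UBTF (chromosome 17, 44205033 to 44221626) was at 223, 225 and 221 TPM in DMSO and 210, 202 and 211 TPM with PTC-028, with no overlap and a change of -0.10 ± 0.04 (SE; adjusted p in limma = 0.26). POLR1B and RRN3 had changes of 0.06 and 0.10 with overlapping groups, and RRN3 was at 0.02 without DMSO replicate 3. The 2 RRN3 pseudogenes in the table held 16.7% of the TPM of the gene and its pseudogenes together, and reads may be divided wrongly among these near copies. Of 17 further polymerase I genes none passed, 8 were above 0 and 9 below, and TAF1B, a subunit of the promoter selectivity factor, had the smallest p, at -0.31 ± 0.10 (SE; adjusted p in limma = 0.179).

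The RNA exosome trims precursor and by-products in the nucleolus, and it held the only gene that passed among 133 tested ribosome biogenesis genes outside the 38. EXOSC9, an exosome core subunit, fell from 71.2, 69.6 and 70.1 TPM in DMSO to 53.1, 53.9 and 54.1 TPM in PTC-028, by 0.38 ± 0.05 on the log2 scale (SE; adjusted p in limma = 0.011). The libraries of each group lay within 2 TPM of each other, far from those of the other group. Leaving out DMSO replicate 1 ended the call (adjusted p = 0.0696), as did leaving out PTC-028 replicate 1, 2 or 3 (0.0597, 0.0625 and 0.0555), although the change stayed between -0.39 and -0.37. With the replicate number as a block the call ended too (adjusted p in limma = 0.077). Of the 14 tested exosome genes 12 were below 0, against 5751 of all 13556, with a median of -0.11, and the list was not tested as a whole.

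The same test found clear changes in the lists set beside the 38 genes. Of 34 tested direct targets of p53, 25 rose, none fell and 9 missed the threshold, around a median log2 fold change of 0.68, and of 48 genes of DNA replication, 32 fell, none rose and 16 missed it, around a median of -0.47. CDKN1A, the gene of p21, a brake on the cell cycle, went from 78.6 ± 1.33 to 294 ± 19.1 TPM and FEN1, a replication nuclease, from 153 ± 5.11 to 93.9 ± 1.69 TPM (SD over 3 libraries). Next by p were PHLDA3 and TNFRSF10B, at 1.11 and 0.91 on the log2 scale, and TK1 and CDC45, at -0.70 and -0.75. When DMSO replicate 1 or one of the PTC-028 libraries was left out, between 16 and 19 p53 targets and between 14 and 18 replication genes passed. Ribosomal protein genes had 0 of 79 that passed and a median of 0.01. In 5 of them (6.33%) the unadjusted p was under 0.05, against 17.7% of all genes tested. These lists were chosen with earlier results of these data known.

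**Figure D5:**
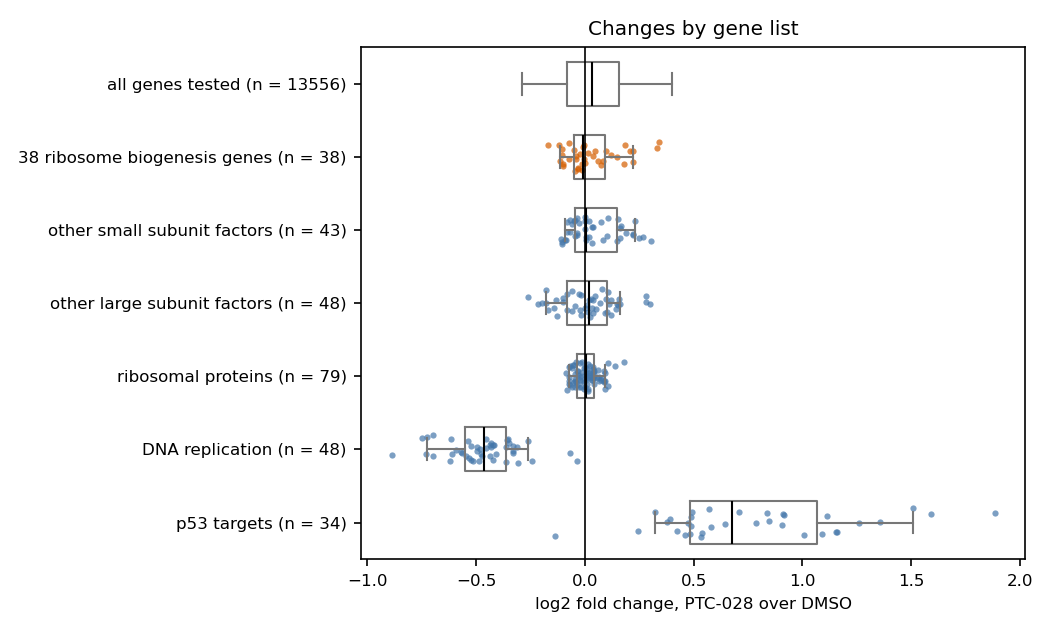
Log2 fold changes, PTC-028 over DMSO, by gene list, 1 point per gene, with boxes for the quartiles and median and whiskers from the 5th to the 95th percentile, and for all genes tested the box alone. The 38 ribosome biogenesis genes centre on -0.01 and the ribosomal proteins on 0.01, whereas DNA replication centres on -0.47 and p53 targets on 0.68.

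Of the genes that link the ribosome to p53, RPL5 and RPL11 had log2 fold changes of 0.03 and -0.02, with 95% intervals from -0.04 to 0.11 and from -0.10 to 0.06, and their directions turned with scaling, RPL5 to -0.0034 under median ratio scaling, which moved the median of all genes alike from 0.03 to -0.0023, and RPL11 to 0.0042 under quantile normalisation. MDM2, the ubiquitin ligase they bind, rose from 74.1, 88.6 and 59.9 TPM to 112, 118 and 131 TPM (limma adjusted p = 0.0359). This call ended when DMSO replicate 1 or one of the PTC-028 libraries was left out (adjusted p from 0.101 to 0.124). It also ended without a filter on low values (0.126), with eBayes without a trend (0.104) and with the replicate number as a block (0.0974). The log2 fold change of MDM2, 0.71 in all libraries, lay between 0.56 and 0.84 with any 1 library left out. In the MYC network 10 of 12 tested genes were above 0, against 7805 of all 13556, with a median of 0.19. The unadjusted p in limma was under 0.05 for 3 of them (25%), 2 higher and 1 lower, against 17.7% of all genes tested. The list was not tested as a whole, and 1 of its genes passed. It was MXD4, which encodes a partner of MAX that opposes MYC at E-boxes, and it rose from 54.0, 57.6 and 57.9 TPM to 74.2, 67.3 and 71.4 TPM, by 0.32 ± 0.06 on the log2 scale (SE; adjusted p in limma = 0.043). That call was lost with any 1 library left out (adjusted p from 0.0551 to 0.167, with a change of 0.29 to 0.36). It was also lost under median ratio scaling (0.0712), without a filter on low values (0.0757), with eBayes without a trend (0.114) and with the replicate number as a block (0.147). Genes of the 38 with an E-box had a median log2 fold change of 0.01 (17 genes, 9 above 0) and those without one of -0.01 (16 genes, 7 above 0). BMI1 mRNA was at 47.9 ± 3.97 and 45.5 ± 3.55 TPM (SD over 3 libraries; limma adjusted p = 0.713).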

How the data were processed

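RNA sequencing of poly(A)-selected RNA was used from 6 IMR-32 libraries, 3 per group. The authors deposited 1 table of TPM per gene, with columns that sum to between 999989 and 999999. The genome build is GRCh38, per the submitters' processing notes, whereas aligner and quantifier were not given in the sources used here. Read depth is unknown, since TPM keeps none. Rows took their GENCODE 29 name by Ensembl identifier (22507 of 23555 rows), which also repaired damaged symbols, and rows of 1 symbol were summed, leaving 22830. The 13556 genes that reached 1 TPM in 3 or more libraries entered limma 3.58.1 (R 4.3.3) as log2(TPM + 1). Treatment was the single term, eBayes used a trend, and 2-sided p-values were adjusted over these genes by Benjamini-Hochberg. The log2(TPM + 1) scale understates changes of low genes. Labels do not say whether replicates were separate cultures, so the p-values reflect spread between libraries that may be technical.

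The 38 genes and all lists were chosen with earlier results of these data known. Every one of the 38 is named. Values in every library are given for those with the smallest p and the highest level in each role. From other lists, up to 3 passing genes or the 1 with the smallest p are named, plus MYCN, MYC, CDKN1A, MDM2, BMI1, RPL5 and RPL11. PTRF had no row under that symbol, and SKIV2L2 and MIZ1 were older names of listed genes. E-boxes were searched as CACGTG in RefSeq promoter windows. Simulated libraries of 13556 genes had 200 changed genes, drawn from all of them. Recovery was 10.2% at a change of 0.32 on the log2 scale, 48.4% at a 1.5-fold and 77.6% at a 2-fold change, with 3.93% of calls false. The 38 genes varied less within a group, with a median SD of 0.0842 on the log2 scale against 0.126 over all genes tested. Recovery for the 38 genes themselves was therefore not measured.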

Additional observations from a re-analysis of the deposited data

How the results depend on the processing

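Under 19 alternatives, the count of the 38 genes that passed was 0, other than 8 with limma's library weights (where 2368 of all genes, 17.5%, passed) and between 0 and 1 with 1 library left out. All genes that passed numbered between 81 and 244 with 1 library left out, 140 without a filter, 137 with eBayes without a trend, 2368 with library weights and 613 after correction for length and GC content, an alternative added after seeing the data. Other ribosome biogenesis genes that passed were 2 at a minimum TPM of 5 and under median ratio scaling, 30 with library weights, 4 after the length and GC correction, and 0 to 1 with 1 library left out. With the replicate number as a block, 99 genes passed, 0 of the 38 and 0 of the other biogenesis genes. Deviations of same-numbered libraries correlated at 0.05, -0.02 and -0.12, and those of differently numbered libraries between -0.08 and 0.10. Whether libraries of the same number shared a culture or a batch is not given by the labels and was not tested.

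The median of the 38 genes, -0.0071 in the main fit, was -0.0447 under median ratio scaling, which moved the median of all genes alike, from 0.0317 to -0.0023. It was 0.0359 with library weights and -0.0350 after the length and GC correction. Of 722 gene values under alternatives, 664 kept direction and side of the threshold, 9 newly passed and 49 changed sign, all of the last in 15 genes whose size was at most 0.114. With 1 library left out, the genes that changed sign, RPL11 among them, ran from -0.0990 to 0.0000 for GAR1, -0.0387 to 0.0189 for NCL, -0.0708 to 0.0200 for NPM1, -0.0588 to 0.0463 for NOLC1, -0.0833 to 0.0266 for GNL3, -0.0738 to 0.0646 for NOC4L, -0.0917 to 0.0285 for RRP9, -0.0783 to 0.0342 for BOP1, -0.0461 to 0.0432 for PES1, -0.0522 to 0.1275 for WDR12, -0.0389 to 0.0538 for NOC2L, -0.0243 to 0.0761 for NOC3L, -0.0693 to 0.0190 for RRS1, -0.0713 to 0.1801 for POLR1B and -0.0393 to 0.0017 for RPL11.
Sign changes under quantile normalisation were NCL at 0.0469, NOLC1 at 0.0285, GNL3 at 0.0086, PES1 at 0.0147, NOC2L at -0.0010, NOC3L at -0.0259 and RPL11 at 0.0042. Under median ratio scaling they were NOC2L at -0.0352, NOC3L at -0.0216 and RPL5 at -0.0034. Without mitochondrially encoded genes they were NCL at 0.0000, NOLC1 at 0.0059 and PES1 at 0.0063. With library weights they were NOC4L at 0.0251, RRP9 at 0.0313, BOP1 at 0.0429, PES1 at 0.0659, NOC3L at -0.0630, RRP1 at 0.0387 and RRS1 at 0.0353. After the length and GC correction they were WDR12 at -0.0722, NOC2L at -0.0625, NOC3L at -0.0174 and POLR1B at -0.0226.
The cause of these changes was not tested. Depth is unknown, which limits the statements on low genes.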
